A study of Mus musculus with 12 samples.

Results

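Hyaluronan is a long unbranched sugar polymer of the extracellular matrix, and the 6 genes described here make it, break it down or bind it: Has1, Has2, Cemip, Hyal1, Hyal2 and Cd44. They were chosen by symbol, with earlier results of these data known, and all 6 were found among the 18604 genes that the 4 deposited tables list between them. Hearts of C57Bl/6J male mice, 12 weeks old, gave 12 RNA libraries, 3 in each of 4 groups. The groups were control diet with sham surgery, control diet with transverse aortic constriction (TAC, a banding of the aortic arch that loads the left ventricle), BCAA-free diet with sham surgery and BCAA-free diet with TAC. BCAA-free means without branched-chain amino acids, the diets began 4 days before surgery, and hearts were taken 1 week after it. No transgene, allele or drug is named in the labels for any group. They do not state whether each library is a different animal, and the p-values rest on the spread among libraries, part or all of which may be technical.

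Hyaluronan synthases sit in the plasma membrane, join UDP-glucuronic acid and UDP-N-acetylglucosamine, and push the growing chain out of the cell. In the adult heart the polymer lies mainly around interstitial cells and vessels, and fibroblasts are a known source of it. Outside cells, long chains are cut by CEMIP, a secreted or membrane-bound hyaluronan-depolymerising protein, and by HYAL2, a GPI-anchored hyaluronidase. HYAL1 finishes the work in lysosomes, and CD44 is the main cell surface receptor for the polymer.

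The promoters of the 3 members whose RNA changed in at least 1 comparison are shown first, so that their upstream sequence can be read beside their values. Each runs over the 250 bases before the RefSeq start of the gene in GRCm38.p6, on the minus strand, at chr7:84086506-84086755 for Cemip, chr17:17855189-17855438 for Has1 and chr2:102901666-102901915 for Cd44. Capitals mark matches to the motifs searched, on either strand.
Cemip: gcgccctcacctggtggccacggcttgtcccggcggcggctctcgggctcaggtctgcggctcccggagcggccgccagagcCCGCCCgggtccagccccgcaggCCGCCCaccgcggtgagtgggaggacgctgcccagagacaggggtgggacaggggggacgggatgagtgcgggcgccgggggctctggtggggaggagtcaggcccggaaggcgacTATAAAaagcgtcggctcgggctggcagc
Has1: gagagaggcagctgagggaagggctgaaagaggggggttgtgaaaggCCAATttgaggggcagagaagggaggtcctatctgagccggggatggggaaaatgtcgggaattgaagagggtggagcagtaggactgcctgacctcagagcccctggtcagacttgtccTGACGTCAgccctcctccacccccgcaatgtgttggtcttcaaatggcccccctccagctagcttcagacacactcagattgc
Cd44: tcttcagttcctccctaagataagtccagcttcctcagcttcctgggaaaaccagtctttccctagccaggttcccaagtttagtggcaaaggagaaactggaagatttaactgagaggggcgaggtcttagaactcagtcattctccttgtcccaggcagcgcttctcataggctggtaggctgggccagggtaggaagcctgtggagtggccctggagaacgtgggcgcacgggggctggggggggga
The motifs searched on both strands were TATAAA for the TATA box, CCAAT for the CCAAT box, GGGCGG for Sp1, TGACGTCA for the cyclic AMP response element, TGAGTCA for AP-1 and GGAATG for TEAD factors. The Cemip promoter held TATAAA 29 to 24 bases before the start, as letters found in 12.4% of the 32851 RefSeq promoters searched, and 2 reverse matches to GGGCGG, found in 32.7%. The Has1 promoter held the palindrome TGACGTCA 83 to 76 bases before the start, found in 1.55% of promoters, and 1 CCAAT, found in 33.8%. In the Cd44 window 0 of the 6 motifs matched, where TGAGTCA was found in 4.46% of all promoters and GGAATG in 12.6%. The G and C content was 75.2% for Cemip, 58.0% for Has1 and 56.4% for Cd44, against a median of 52.4% over all promoters. These matches describe letters in a window and say nothing about binding.

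Reads summed over the listed genes were 74206246 to 110452636 per library, and reads outside those genes are not known. Summed cardiomyocyte markers, which check the tissue, reached 4337220 to 6702660 normalized reads. Summed over 3 atrial cardiomyocyte markers, the level was 3718 to 24394 in control diet sham and 12980 to 33797 in control diet TAC. It was 6772 to 15240 in BCAA-free sham and 21336 to 25039 in BCAA-free TAC, and these 2 groups did not overlap. The share of atrial tissue in each library was not tested. Normalized reads are reads divided by a size factor set jointly over the 12 libraries. The library farthest from its group mean was control diet TAC 3, with an SD over genes of 0.337 on the log2 scale, against 0.218 to 0.275 in the other libraries. Mitochondrially coded RNA took 17.9% to 19.9% of the reads of listed genes in control diet TAC and 21.8% to 27.1% in the other 9 libraries. No batch, date or pooling is given in the labels.

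Fold changes below are log2 differences ± SE on the log2(deposited value + 1) scale from limma, within the table of the 2 groups compared, and adjusted p-values are Benjamini-Hochberg values over all genes tested, called below 0.05. With TAC on the control diet, 3 of the 6 members rose, Cemip, Has1 and Cd44, and 0 fell. Over all genes tested 14.8% were called, 9.17% higher and 5.64% lower. With TAC on the BCAA-free diet, 0 of the 5 members listed passed, against 7.72% of all genes (3.31% higher, 4.41% lower). Before adjustment 0 had a p under 0.05, and edgeR and DESeq2 called 0, where DESeq2 gave Has1 no adjusted p. Between diets in sham hearts, 0 of 5 passed, against 3.54% of all genes (1.27% higher, 2.27% lower). Before adjustment 2 lower members had a p under 0.05, edgeR called 0 and DESeq2 called 1, lower, again with no adjusted p for Has1. Between diets in TAC hearts, Cemip and Cd44 were called lower on the BCAA-free diet, 2 of 6, where 16.8% of all genes were called, 10.5% lower and 6.23% higher. The median member differed by 0.48 with TAC on the control diet, where the median of all genes was -0.02, and by -0.89 between diets in TAC hearts, where it was 0.02. Comparisons that meet in control diet TAC share its 3 libraries, so their values are given side by side. Cemip is listed only where control diet TAC is a group, through its high reads there, and this bears on every count of members. The members were also chosen with earlier results of these data known, so the shares and medians of all genes do not test for enrichment.

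**Figure D1:**
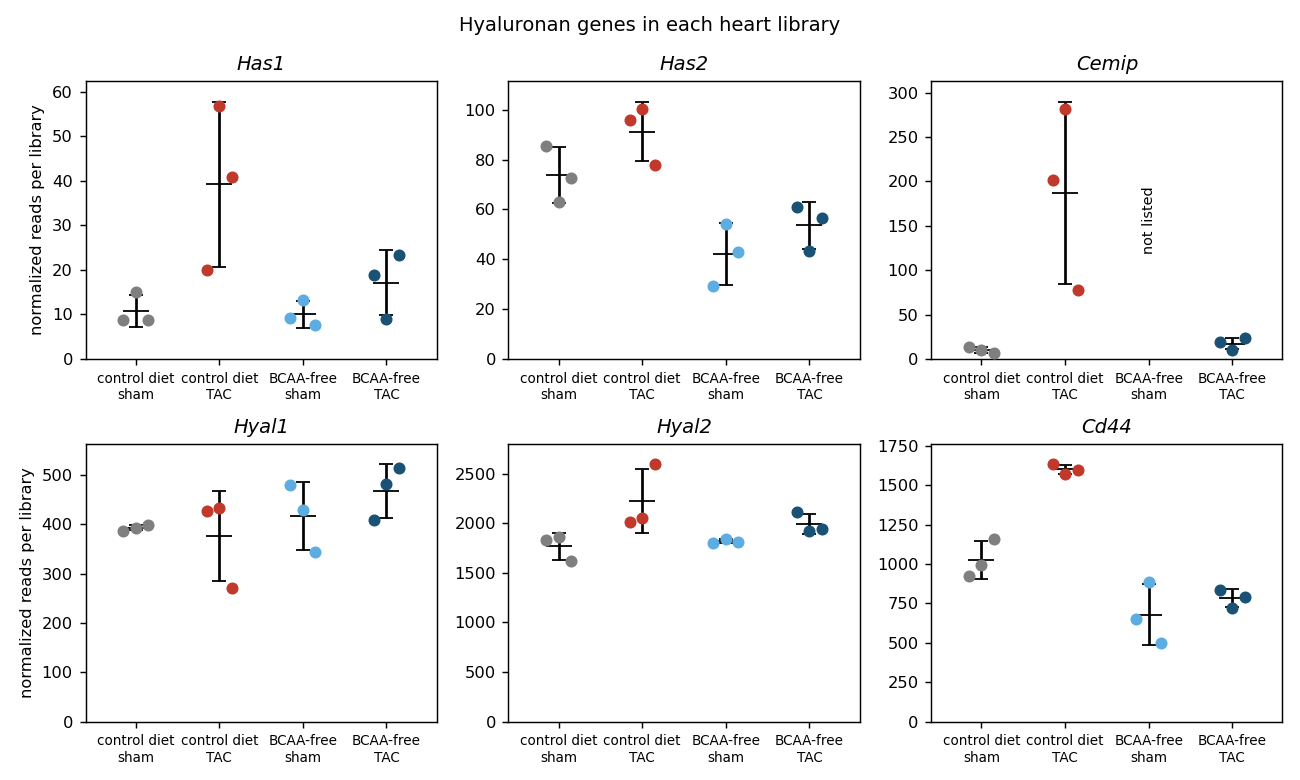
Normalized reads (linear axis from 0) of the 6 genes in each of the 12 libraries, 1 point per library, with the mean and SD of each group as bars. Cemip reached 77.7 to 282 in control diet TAC and at most 23.4 in any other library that lists it, and Cd44 lay at 1571 or higher in control diet TAC and at 1160 or lower elsewhere.

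Has1, a synthase with few reads in these hearts, had a 3.62-fold higher mean with TAC on the control diet. It had 8.74, 14.9 and 8.79 normalized reads in control diet sham and 19.9, 56.8 and 40.9 in control diet TAC. The values of BCAA-free sham were 9.13, 13.3 and 7.57, and those of BCAA-free TAC 18.8, 9.08 and 23.4. The control diet TAC libraries were all above the control diet sham libraries, while the BCAA-free TAC libraries overlapped both BCAA-free sham and control diet TAC. The change with TAC was 1.69 ± 0.44 on the control diet (adjusted p = 0.0322) and 0.65 on the BCAA-free diet (adjusted p = 0.429). In TAC hearts the diets differed by -1.12 ± 0.47 (adjusted p = 0.133), and in sham hearts by -0.10 (adjusted p = 0.926). This call was lost without control diet sham 1 (adjusted p = 0.103), without control diet sham 3 (0.101) and without control diet TAC 2 (0.0999).

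Has2, the main synthase of the developing heart, had the higher level of the pair per kilobase of exon in every library. Control diet sham had 85.4, 63.0 and 72.7 normalized reads, and control diet TAC had 95.7, 100.4 and 77.7. On the BCAA-free diet the sham libraries had 29.4, 54.1 and 42.9, and the TAC libraries 61.0, 43.1 and 56.6. All 6 libraries of the BCAA-free diet thus lay below all 6 of the control diet, in sham and in TAC hearts alike. The group means were 1.75-fold lower on the BCAA-free diet in sham hearts and 1.70-fold lower in TAC hearts. Neither passed the test over all genes: the difference was -0.83 ± 0.26 in sham hearts (95% interval -1.41 to -0.24, adjusted p = 0.112) and -0.76 ± 0.24 in TAC hearts (adjusted p = 0.0536). The second was called without control diet TAC 3 (-0.86, adjusted p = 0.0211) and by DESeq2 (-0.76, adjusted p = 0.0355). With TAC, Has2 differed by 0.30 on the control diet (adjusted p = 0.405) and by 0.36 on the BCAA-free diet (adjusted p = 0.486), with groups that overlapped on both.

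Has1 libraries were thus set apart by surgery on the control diet and Has2 libraries by diet, and the difference between the genes was not tested. Per kilobase of exon, Has1 made up 8.75% to 18.2% of the summed Has1 and Has2 level in control diet sham, 16.3% to 34.7% in control diet TAC, 14.2% to 22.5% in BCAA-free sham and 16.5% to 27.9% in BCAA-free TAC. These shares overlapped between all groups. Exons of Has2 share 182 bases, 4.30% of their length, with the antisense gene Has2os, whose group means were 24.5 to 29.0 normalized reads with overlapping libraries in all 4 comparisons. The strand setting of the counting is not given in the sources used here.

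Cemip showed the largest TAC difference of the 6, with an 18.3-fold higher mean in control diet TAC than in control diet sham. Its values were 13.6, 10.7 and 6.40 normalized reads in control diet sham and 201, 282 and 77.7 in control diet TAC. BCAA-free TAC had 18.8, 10.2 and 23.4, which is 10.7-fold lower in the mean than control diet TAC and overlaps control diet sham. Cemip rose by 3.94 ± 0.47 with TAC on the control diet (adjusted p = 0.00134) and was lower by -3.23 ± 0.47 on the BCAA-free diet in TAC hearts (adjusted p = 0.00213). Both calls held in every alternative run. The 3 control diet TAC libraries were spread widely, and without control diet TAC 3, the lowest, the differences were 4.47 and -3.76.

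The tables that contain BCAA-free sham do not list Cemip, so its level there, its response to TAC on the BCAA-free diet and the difference of responses are not analysed here. Every gene listed in those tables has at least 61 reads over its 6 libraries. The 3 BCAA-free TAC libraries held 44 Cemip reads in all, and the 3 control diet sham libraries 32, against 644 in control diet TAC. No gene in any deposited table has fewer than 61, so Cemip is listed only through the reads of control diet TAC. Both of its calls are against that group, so they are not independent of its being listed.

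Hyal2 was the most abundant of the 6 per kilobase of exon and moved little. It had 1830, 1860 and 1614 normalized reads in control diet sham, 2015, 2051 and 2592 in control diet TAC, 1800, 1840 and 1813 in BCAA-free sham, and 2111, 1925 and 1943 in BCAA-free TAC. TAC libraries were above sham libraries on both diets, without overlap. The differences of 0.31 on the control diet (adjusted p = 0.133) and 0.13 on the BCAA-free diet (adjusted p = 0.258) did not pass. The diets differed by 0.04 in sham hearts (adjusted p = 0.802) and by -0.14 in TAC hearts (adjusted p = 0.454).

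Hyal1 passed in 0 of the 4 pairwise comparisons and its groups overlapped in each. Control diet sham had 387, 393 and 398 normalized reads, control diet TAC 427, 432 and 272, BCAA-free sham 479, 428 and 343, and BCAA-free TAC 408, 481 and 513. The difference with TAC on the control diet was -0.10 (adjusted p = 0.764) and turned to 0.11 without control diet TAC 3, the lowest of the 12 libraries for Hyal1 and the highest for Hyal2. Its counts are uncertain, since 1920 bases of Hyal1 exons, 50.8% of their length, lie in exons of the neighbouring Naa80 on the same strand, and 159 bases, 4.21%, in those of Hyal3. Hyal2 ends 4147 bases before Hyal1 starts.

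Setting the groups by the ratio of the member hyaluronidases to the member synthases, summed per kilobase, gave a split by diet. The ratio of Hyal1 plus Hyal2 to Has1 plus Has2 was 29.8 to 36.8 in control diet sham and 20.3 to 31.4 in control diet TAC. It was 42.8 to 75.1 in BCAA-free sham and 39.2 to 58.4 in BCAA-free TAC, above every control diet library. This ratio of RNA levels was formed after the values were seen and carries no test, and it does not measure enzyme activity. Has3, a synthase outside the members, and Hyal3 were left out of it. In both sham groups and in BCAA-free TAC, Has3 had more normalized reads than Has2 in every library, so the ratio leaves out much of the synthase RNA. Has3 had 57.4 to 73.0 normalized reads in control diet TAC and 88.0 to 124 in BCAA-free TAC, against the direction of Has2. A ratio that includes Has3 was not formed, so no split by diet is shown for all synthases.

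Cd44 was high in control diet TAC and low in both BCAA-free groups. It had 923, 991 and 1160 normalized reads in control diet sham and 1631, 1571 and 1597 in control diet TAC. BCAA-free sham had 650, 885 and 499, and BCAA-free TAC 836, 720 and 792. All 6 BCAA-free libraries were below all 6 control diet libraries, and the 2 BCAA-free groups overlapped each other. Cd44 rose by 0.64 ± 0.11 with TAC on the control diet (adjusted p = 0.00686), a 1.56-fold higher mean. It was lower by -1.03 ± 0.10 on the BCAA-free diet in TAC hearts (adjusted p = 0.000461), a 2.04-fold lower mean, and both calls held in every alternative run. On the BCAA-free diet the TAC groups differed by 0.24 (adjusted p = 0.501). In sham hearts the diets differed by -0.63 ± 0.20 (95% interval -1.10 to -0.16, adjusted p = 0.134), which was called without BCAA-free sham 2 (-0.84, adjusted p = 0.0361) and by DESeq2 (-0.60, adjusted p = 0.0105).

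Counting members whose 2 groups did not overlap in the deposited values gave 4 of 6 higher with TAC on the control diet, where 18.5% of all genes tested were, and 1 of 5 higher with TAC on the BCAA-free diet, where 13.4% were. Between diets, 2 of 5 were lower in BCAA-free sham, against 12.9% of all genes, and 3 of 6 lower in BCAA-free TAC, against 19.2%. Has2 and Cd44 were the 2 that were lower without overlap in both. The counts of 4 of 6 and 3 of 6 include Cemip, which is listed only through its reads in control diet TAC, so its lack of overlap there is not independent evidence.

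**Figure D2:**
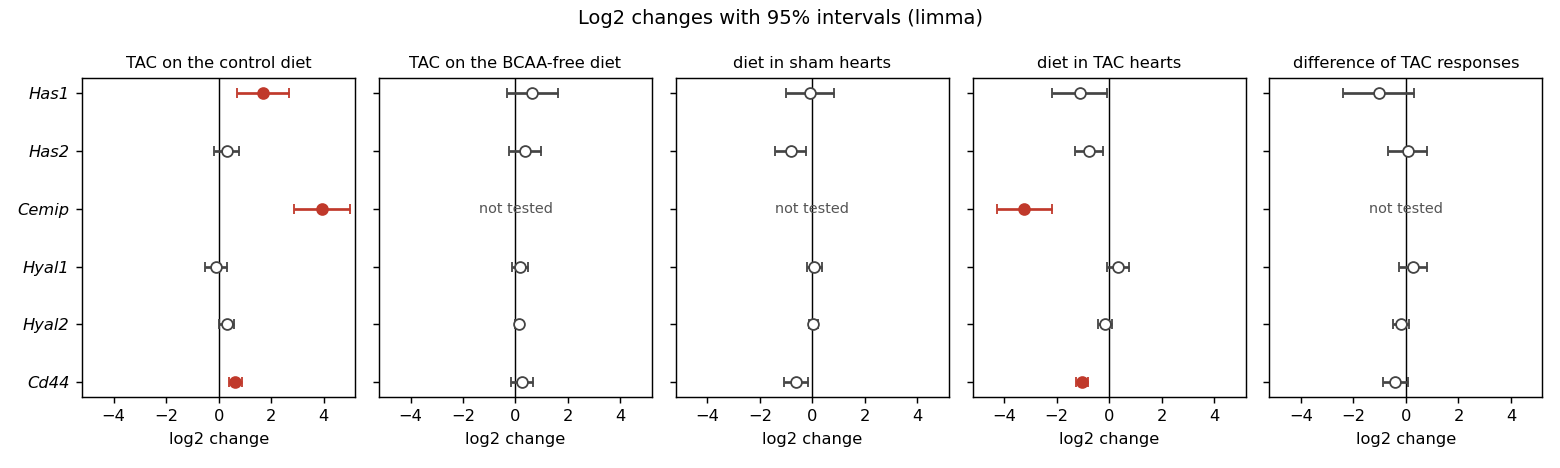
Log2 differences (limma, linear axis in log2 units) of the 6 genes in 5 comparisons, with 95% intervals; filled red points had an adjusted p below 0.05. Cemip, Has1 and Cd44 are filled for TAC on the control diet, Cemip and Cd44 for diet in TAC hearts, and no point is filled in the other 3 panels.

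Whether TAC responses differed between diets was asked of all 12 libraries at once, as the response on the BCAA-free diet minus that on the control diet. Of the 5 members that could be fitted, 0 passed, against 0.675% of all genes (0.171% higher, 0.503% lower). Before adjustment 0 had a p under 0.05, and edgeR and DESeq2 called 0, where DESeq2 gave 1 member no adjusted p. The difference was -0.40 for Cd44 (adjusted p = 0.444), -1.04 for Has1 (adjusted p = 0.486), -0.19 for Hyal2 (adjusted p = 0.593), 0.27 for Hyal1 (adjusted p = 0.676) and 0.06 for Has2 (adjusted p = 0.966). The calls for Cd44 and Has1 on the control diet alone are therefore not shown to differ from the BCAA-free diet.

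Ranked per kilobase of exon, mean normalized reads in control diet sham were 537 for Hyal2, 151 for Cd44, 104 for Hyal1, 17.4 for Has2, 2.40 for Has1 and 0.836 for Cemip. In control diet TAC they were 674 for Hyal2, 236 for Cd44, 99.8 for Hyal1, 21.5 for Has2, 15.3 for Cemip and 8.68 for Has1. Cemip thus stood below Has1 in control diet sham and above it in control diet TAC, where its libraries overlapped those of both synthases. In BCAA-free TAC the mean was 605 for Hyal2, 124 for Hyal1, 116 for Cd44, 12.6 for Has2, 3.78 for Has1 and 1.43 for Cemip, with Hyal1 above Cd44. BCAA-free sham had 552 for Hyal2, 110 for Hyal1, 100 for Cd44, 9.94 for Has2 and 2.21 for Has1. The libraries of Hyal1 and Cd44 overlapped in both BCAA-free groups and in neither control diet group. These ranks depend on the exon lengths used, which take in all annotated exons of a gene. Since 50.8% of the Hyal1 exon bases are shared with Naa80, its place against Cd44 is uncertain.

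Positions are those of GRCm38 in the GENCODE M21 annotation. On the minus strand lie Cemip at chr7:83932857-84086502 with 12232 exon bases, Has1 at chr17:17843323-17855205 with 4518, Has2 at chr15:56665627-56694539 with 4237 and Cd44 at chr2:102811141-102901665 with 6776. Hyal2 at chr9:107567945-107572779 with 3293 exon bases and Hyal1 at chr9:107576927-107581710 with 3777 lie side by side on the plus strand.

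Of 46 other genes of hyaluronan biology, also chosen with earlier results of these data known, 37 were in any table and tested. With TAC on the control diet 19 rose and 2 fell (median difference 0.45, against -0.02 over all genes), and with TAC on the BCAA-free diet 5 rose and 1 fell (0.17, against 0.01). Between diets, 1 was higher and 3 lower in BCAA-free sham (-0.13, against 0.00), and 1 higher and 16 lower in BCAA-free TAC (-0.50, against 0.02). Over all genes, 9.17% were called higher and 5.64% lower with TAC on the control diet, and 3.31% and 4.41% on the BCAA-free diet. Between diets 1.27% were higher and 2.27% lower in sham hearts, and 6.23% and 10.5% in TAC hearts. For the difference of TAC responses 0 passed. Before adjustment 14 had a p under 0.05, 13 of them lower, while edgeR called 0 and DESeq2 called 5, all lower. DESeq2 gave 2 of the 37 no adjusted p there.

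Among the other synthesis and precursor genes, 1 of 8 rose and 1 fell with TAC on the control diet. Ugdh, which makes UDP-glucuronic acid, rose by 0.56 ± 0.10 (adjusted p = 0.00771) and was lower in BCAA-free TAC than in control diet TAC by -0.51 ± 0.10 (adjusted p = 0.00757), a call lost without BCAA-free TAC 2 (0.0516). Has3, the third synthase, moved the other way and was named after its values were seen. It had 121, 168 and 91.1 normalized reads in control diet sham, 57.4, 73.0 and 59.3 in control diet TAC, 91.3, 60.3 and 140.0 in BCAA-free sham, and 88.0, 111 and 124 in BCAA-free TAC. Its control diet TAC libraries lay below both control diet sham and BCAA-free TAC without overlap. Has3 fell by 0.96 ± 0.26 with TAC on the control diet (adjusted p = 0.0355) and was higher in BCAA-free TAC by 0.76 ± 0.22 (adjusted p = 0.0462). The first call was lost without control diet sham 1 (adjusted p = 0.103), sham 2 (0.128), TAC 1 (0.116) or TAC 2 (0.0518), and the second without control diet TAC 1 (0.136), TAC 2 (0.0580) or any BCAA-free TAC library (0.0524 to 0.172).

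Of the 5 other degradation genes listed, 3 rose with TAC on the control diet, against 9.17% of all genes. In BCAA-free TAC 2 were lower than in control diet TAC, against 10.5%. Gusb and Hexa encode lysosomal exoglycosidases that trim hyaluronan fragments and also act on other glycans. Gusb rose by 0.57 ± 0.09 (adjusted p = 0.00541) and Hexa by 0.45 ± 0.09 (adjusted p = 0.0117) with TAC on the control diet. Gusb was lower by -0.68 ± 0.09 in BCAA-free TAC (adjusted p = 0.00166). The Hexa call was lost without control diet sham 1 (adjusted p = 0.0501) or sham 2 (0.0627).

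Receptors other than Cd44 rose in 4 of 7 cases with TAC on the control diet, Hmmr, Layn, Stab1 and Tlr2, against 9.17% of all genes. The same 4 were lower in BCAA-free TAC than in control diet TAC, against 10.5% of all genes. Layn, a C-type lectin-like hyaluronan receptor, had 373 to 395 normalized reads in control diet sham, 652 to 823 in control diet TAC, 251 to 301 in BCAA-free sham and 359 to 419 in BCAA-free TAC. It rose by 0.94 ± 0.13 (adjusted p = 0.00241) and was lower by -0.96 ± 0.14 (adjusted p = 0.00189). Hmmr, which binds hyaluronan and also works on the mitotic spindle, was lower in BCAA-free TAC by -2.66 ± 0.29 (adjusted p = 0.000655), at 42.0 to 71.4 normalized reads against 236 to 467 in control diet TAC. Lyve1, the receptor of lymphatic vessels and some resident macrophages, was the only one of the 37 called higher in BCAA-free sham (0.41 ± 0.08, adjusted p = 0.0287). Tlr2, a pattern receptor also activated by hyaluronan fragments, was called lower there (-0.58 ± 0.12, adjusted p = 0.0330). Neither of these sham calls was robust to the samples used: without control diet sham 3 or any 1 of the BCAA-free sham libraries the adjusted p was 0.0739 to 0.0955 for Lyve1 and 0.0798 to 0.124 for Tlr2, and without control diet sham 1 it was 0.0599 for Tlr2.

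Matrix partners of the polymer were the largest list tested, with 8 of 11 higher in control diet TAC than in control diet sham, against 9.17% of all genes. In BCAA-free TAC 6 of 11 were lower than in control diet TAC, against 10.5%. Vcan, which encodes the large hyaluronan-binding proteoglycan versican, had 1466 to 2048 normalized reads in control diet sham, 3705 to 4945 in control diet TAC, 1032 to 1263 in BCAA-free sham and 1566 to 2273 in BCAA-free TAC. It was called in all 4 pairwise comparisons: 1.28 ± 0.15 and 0.74 ± 0.13 with TAC on the control and the BCAA-free diet (adjusted p = 0.00130 and 0.0102), and -0.59 ± 0.12 and -1.13 ± 0.15 between diets in sham and TAC hearts (adjusted p = 0.0370 and 0.00161). The sham call of Vcan was lost without control diet sham 3 or any 1 of the BCAA-free sham libraries (0.0568 to 0.150), and the TAC call on the BCAA-free diet without BCAA-free sham 3 (0.0527). Tnfaip6 encodes TSG-6, which moves heavy chains of inter-alpha-trypsin inhibitor onto hyaluronan, and rose by 1.49 ± 0.20 on the control diet (adjusted p = 0.00226). Itih4, named for its likeness to those heavy chains, rose by 1.44 ± 0.15 on the control diet (adjusted p = 0.000691) and by 1.29 ± 0.16 on the BCAA-free diet (adjusted p = 0.000988). Acan, the gene of aggrecan, rose by 2.75 ± 0.63 on the control diet (adjusted p = 0.0202) and by 1.96 ± 0.29 on the BCAA-free diet (adjusted p = 0.00218). On the control diet it had 3.88, 26.7 and 23.2 normalized reads in sham and 75.8, 164 and 76.9 in TAC hearts. That value was 1.94 without control diet sham 1, and the call was lost without any 1 of the control diet TAC libraries (adjusted p = 0.0533 to 0.0614).

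Among CD44 partners, Spp1, which encodes the ligand osteopontin, had the largest changes with TAC. It had 67.1 to 95.03 normalized reads in control diet sham, 620 to 732 in control diet TAC, 59.8 to 81.6 in BCAA-free sham and 210 to 372 in BCAA-free TAC. The rise was 3.01 ± 0.18 on the control diet (adjusted p = 6.04e-05) and 2.11 ± 0.22 on the BCAA-free diet (adjusted p = 0.000410), and the difference of the 2 responses was -0.90 (adjusted p = 0.167). Msn, which encodes moesin, a linker of CD44 to actin, was lower on the BCAA-free diet in sham hearts by -0.29 ± 0.06 (adjusted p = 0.0317) and in TAC hearts by -0.76 ± 0.12 (adjusted p = 0.00327). The related linkers Ezr and Rdx fell, Ezr by 0.33 ± 0.09 with TAC on the control diet (adjusted p = 0.0427) and Rdx by 0.19 ± 0.05 with TAC on the BCAA-free diet (adjusted p = 0.0360). Of these, the sham call of Msn was lost without control diet sham 3 or any 1 of the BCAA-free sham libraries (adjusted p = 0.0692 to 0.150), that of Ezr without any 1 library except control diet TAC 3 (0.102 to 0.154) and that of Rdx without any 1 of its 6 libraries (0.0627 to 0.121). Ugp2, an enzyme that makes UDP-glucose upstream of Ugdh, rose by 0.34 ± 0.07 with TAC on the BCAA-free diet (adjusted p = 0.0111).

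**Figure D3:**
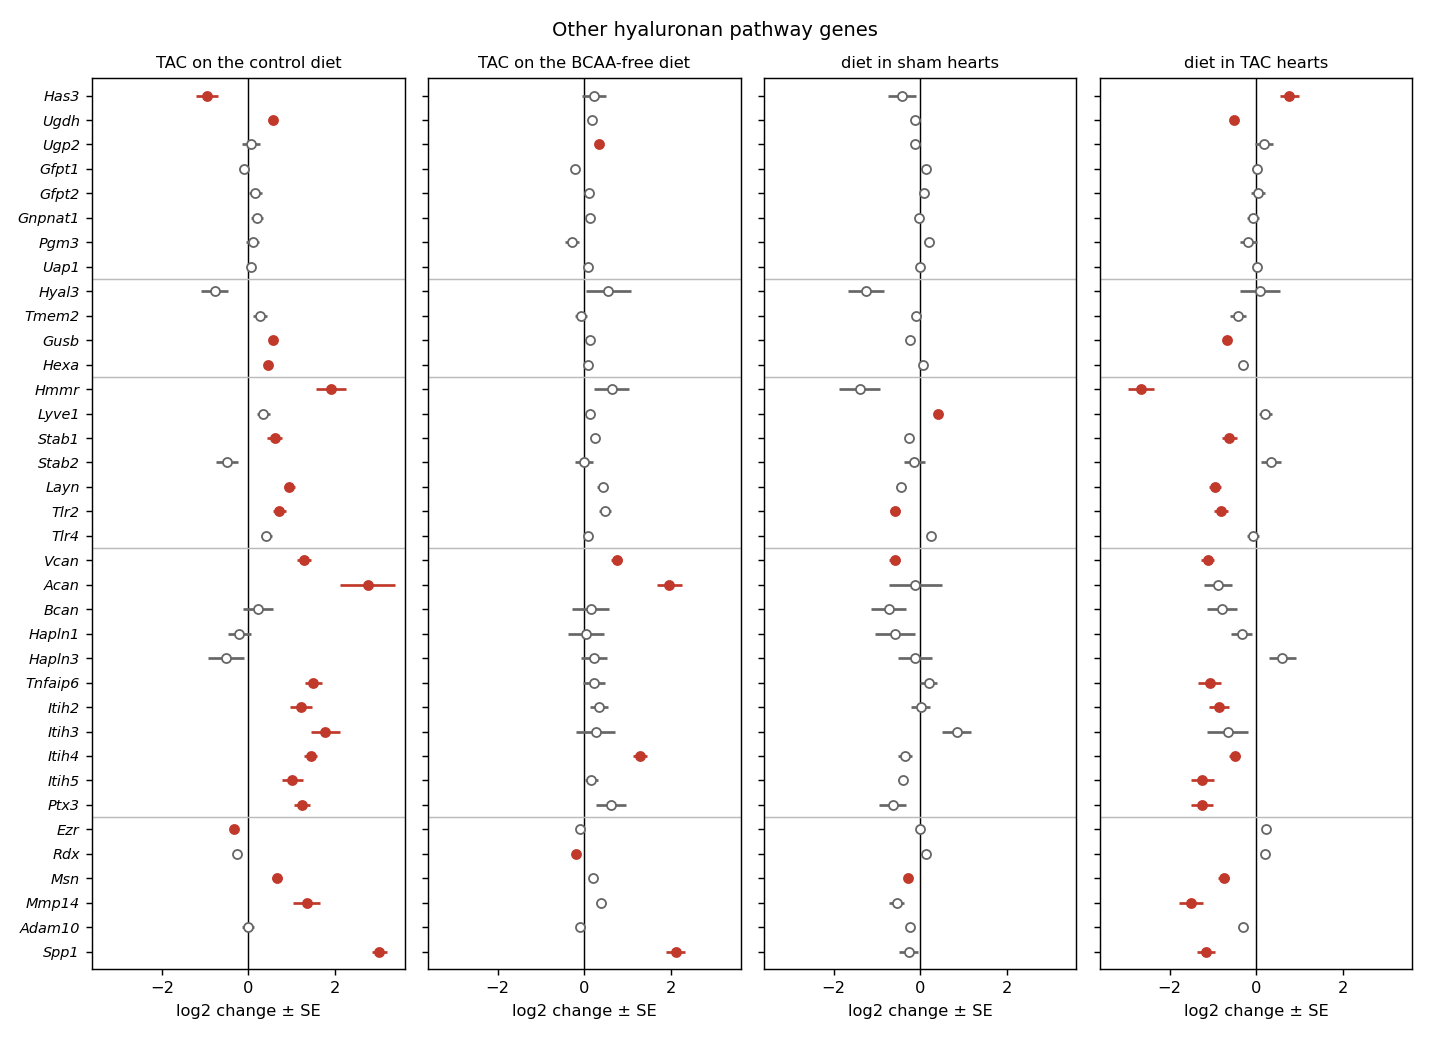
Log2 differences ± SE (limma, linear axis in log2 units) of the other hyaluronan genes reported, in the 4 pairwise comparisons, grouped by synthesis, degradation, receptors, matrix and CD44 partners; filled red points had an adjusted p below 0.05. Points to the right of 0 are the TAC group or the BCAA-free group being higher, and Has3 lies on the opposite side from Ugdh, Vcan and Spp1 in the first and last panels.

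Markers of several heart cell types also differed between the groups. Over all genes, 9.17% were called higher and 5.64% lower with TAC on the control diet. Between diets 10.5% were called lower and 6.23% higher in TAC hearts, and 2.27% lower in sham hearts. Summed over 5 activated fibroblast markers, the level was 8120 to 10189 normalized reads in control diet sham, 55663 to 118118 in control diet TAC, 4881 to 6169 in BCAA-free sham and 10425 to 18935 in BCAA-free TAC. Of them 4 of 5 rose with TAC on the control diet and 4 of 5 were lower in BCAA-free TAC, and control diet TAC 3, lowest of its group for Cemip, also had the lowest of these 3 sums. Summed over 10 macrophage markers the level was 22923 to 30221, 43402 to 46759, 21223 to 24267 and 24895 to 32029 in the same order, with 7 of 10 called higher and 10 of 10 called lower in those comparisons. The 7 epicardial markers summed to 608 to 969, 1053 to 1136, 442 to 762 and 847 to 1052, with 1 of 7 called higher with TAC on the control diet. Between diets in TAC hearts the epicardial markers went both ways, with Msln and Upk3b called higher and Krt8 and Wt1 lower on the BCAA-free diet. Before adjustment 5 were higher and 2 lower at a p under 0.05 (limma), with a median difference of 0.86. Wt1 had the most reads of the 7 in every library and so dominates their sum. The 8 cardiomyocyte markers summed to 5315470 to 5924410, 4337220 to 4992490, 5783020 to 6339420 and 6237000 to 6702660, so that the control diet TAC libraries were the lowest of the 12. With TAC on the control diet limma called 0 of these 8 (3 lower at an unadjusted p under 0.05, 0 by edgeR, 2 lower by DESeq2), and 4 of 8 were called higher in BCAA-free TAC than in control diet TAC. Of the 8 general fibroblast markers, 5 were called higher and Gsn lower with TAC on the control diet. In BCAA-free TAC 4 of the 8 were called lower than in control diet TAC, and Gsn was called higher. Gsn had the most reads of the 8 in every library, so it weighs most in their sum. No marker of the fibroblast, macrophage or epicardial lists was missing or at 0 in a group. The 6 endothelial markers summed to 56332 to 67520, 44384 to 66638, 48636 to 52986 and 49309 to 53195 in the same group order. Of them Cdh5 was called lower in BCAA-free sham than in control diet sham, where 4 were lower at an unadjusted p under 0.05 (limma). In the other 3 pairwise comparisons 0 of 6 were called. For lymphocytes, Cd3e, Cd3g and Cd3d are not listed, and the 3 markers with a value in all libraries summed to 105 to 138. In bulk hearts fewer cells of a type and less RNA per cell cannot be told apart, and the part of cell makeup in the changes of the members was not tested.

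**Figure D4:**
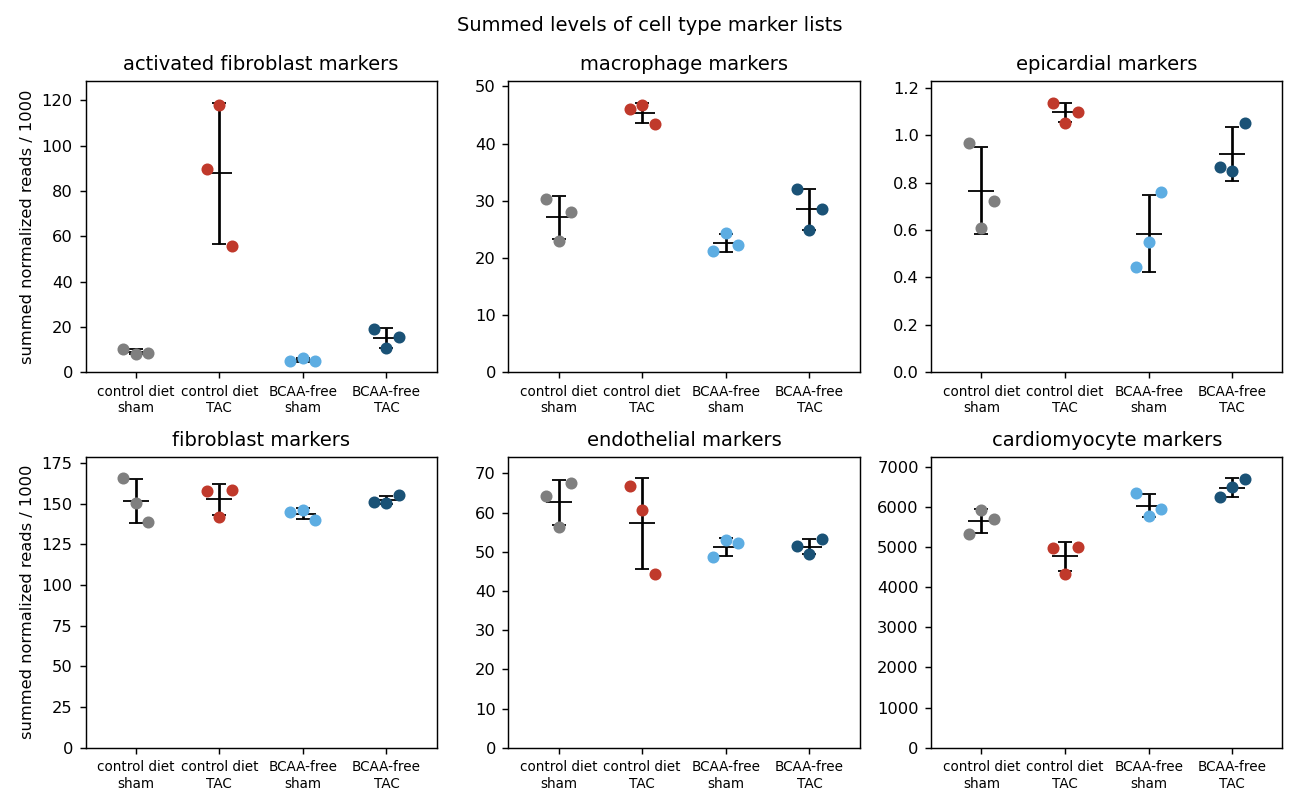
Summed normalized reads divided by 1000, on a linear axis from 0, of 6 cell type marker lists in each library, with the mean and SD of each group. Activated fibroblast and macrophage sums are highest in all 3 control diet TAC libraries, while the sums of general fibroblast markers in control diet TAC overlap those of each other group. Gsn weighs most in the general fibroblast sum and moved against the other markers called in that list. Wt1 weighs most in the epicardial sum.

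The genes whose levels followed each member most closely were sought among 12855 genes by Pearson correlation of log2 levels over the libraries, as a description. The libraries share group and depth differences, so high values are common and no p is given. For Cemip, over the 9 libraries that list it, they were Nkd2 (r = 0.996), Cercam (0.994) and the collagen gene Col14a1 (0.993). For Has1, over 12 libraries, they were the amino acid transporter gene Slc38a2 (0.959), Arid5a (0.951) and Adamts1 (0.939), and for Has2 they were Adamts9 (0.971), the endothelial adhesion gene Esam (0.969) and Tnfaip8l1 (0.965). Cd44 was followed by Ywhaz (0.977) and by Pclaf (0.977) and Chaf1b (0.974), which work in DNA replication and chromatin assembly. Hyal2 was followed by Brk1 (0.974), Cystm1 (0.969) and Tbca (0.962), and Hyal1, less closely, by Krtcap3 (0.904), Fam13c (0.897) and Sh3d21 (0.889).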

How the data were processed

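RNA was measured in 12 heart libraries, 3 in each of 4 groups taken from the labels. Per the submitters' processing notes, the tools were DESeq2, Subread 1.5.2, STAR 2.5.2b and Trimmomatic 0.36, with builds GRCm38 and mm10. What each was used for, the annotation and whether counting used strand is not given in the sources used here. Per the file headers, the authors deposited 4 tables of normalized counts, a signal for each library, beside their own log2 fold changes and p-values. The authors' log2 fold changes and p-values were not used. The deposited signal is a read count divided by a size factor set per table, and undoing it gave whole reads, within 0.0001 read, for 100% of values. Recovered reads were equal in both tables of a library in all 212169 values compared.

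A count test was planned only for raw counts. Since the unit was normalized, limma-trend (limma 3.58.1, R 4.3.3) with robust empirical Bayes was run on log2(value + 1), a pseudocount of 1, over genes with a mean of at least 10, each table alone. This scale understates changes of low genes. The difference of TAC responses used all 12 libraries. edgeR 4.0.16, DESeq2 1.42.0 and TMM scaling on recovered reads, a pseudocount of 5, no filter, a replicate block and leaving out each library were alternatives. The limma and edgeR fits were tested on simulated reads with the same spread setting for all genes. That test did not cover DESeq2, or changes in genes with as few reads as Has1. The listed genes held 74206246 to 110452636 reads per library, and Cemip and Has1 had the fewest of the members.

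Levels per kilobase use GENCODE M21 exon lengths. Promoters are from RefSeq (GRCm38.p6), where 5 of the 6 members were matched, all but Has2. The 6 members and all gene lists were chosen with earlier results of these data known. Named genes were the 6 members and, per pairwise comparison, the 5 other hyaluronan genes with the smallest p among those called. Genes named beyond that rule (Has3, Ugdh, Hexa, Stab1, Ezr, Rdx), and values in comparisons where the rule did not pick the gene, were chosen after their values were seen. Of the other hyaluronan genes, 1 is counted in the totals and its own values are not reported here.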

Additional observations from a re-analysis of the deposited data

Results flagged for a closer look

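For Hexa, which encodes a lysosomal exoglycosidase that trims hyaluronan fragments and other glycans, the diet difference ran in opposite directions in sham and TAC hearts, without overlap in either. In control diet sham it had 4567 to 4830 normalized reads and in BCAA-free sham 4879 to 4948. Control diet TAC had 6232 to 6736 and BCAA-free TAC 5017 to 5623, a ratio of means of 0.810. Neither difference passed alone (0.07, adjusted p = 0.514 in sham hearts, and -0.30, adjusted p = 0.0583 in TAC hearts, limma), and the difference between them, tested as the difference of TAC responses, was -0.37 ± 0.10 (adjusted p = 0.0917).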

How the results depend on the processing

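The calls of Cemip and Cd44 for TAC on the control diet and for diet in TAC hearts held under every alternative run. Of the members' values, 334 kept their direction and side of the threshold, 4 passed only in the alternative, 3 were lost and 8 changed sign. Of those of other genes named, 285 kept both and 51 were lost. The sign changes of members were all in values not called, Hyal1 with TAC on the control diet (0.11 without control diet TAC 3, range over libraries left out -0.21 to 0.11). For diet in sham hearts they were Has1 (0.063 without BCAA-free sham 3, range -0.22 to 0.063), Hyal1 (-0.037 without BCAA-free sham 1, range -0.037 to 0.20) and Hyal2 (-0.023 without control diet sham 3, range -0.023 to 0.079). For the difference of TAC responses it was Has2 (-0.050 without control diet sham 1, -0.042 without control diet TAC 3, -0.17 without BCAA-free sham 1 and -0.034 without BCAA-free TAC 1, range -0.17 to 0.26). By DESeq2, 1 member was lower for diet in sham hearts, where limma called 0, and genes called were 1530 against 633 there and 809 against 118 for the difference of TAC responses. Same-numbered libraries correlated by -0.17 to 0.0417 in their deviations from group means, with 0 of 12 pairs over 0.1. No pairing by number was seen there, but with 3 libraries per group a shared litter or day is not excluded. What a replicate number marks is not given in the labels. With the replicate block, genes called were 623 against 1360 for TAC on the BCAA-free diet, 276 for diet in sham hearts and 50 for the difference of TAC responses. The 4 calls of Lyve1, Msn, Tlr2 and Vcan in sham hearts were lost under it (adjusted p = 0.0681, 0.0828, 0.0741 and 0.103), as were those of Has3 in TAC hearts (0.0908), Ezr (0.113) and Rdx (0.154). Leaving out 1 library gave 1354 to 4678 genes called for TAC on the control diet (2710 with all), 546 to 1257 for TAC on the BCAA-free diet, 50 to 1071 for diet in sham hearts, 1195 to 6025 for diet in TAC hearts (3025 with all) and 16 to 1755 for the difference of TAC responses. Members called were then 2 to 3 higher with TAC on the control diet, 0 to 1 lower for diet in sham hearts and 2 to 3 lower for diet in TAC hearts. Has1 fell below the mean needed for testing in sham hearts without control diet sham 2 or BCAA-free sham 2. Low counts limit the precision of Cemip and Has1. The causes of these changes were not tested.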
